A study of Mus musculus with 18 samples.

Results

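Complex I, the NADH:ubiquinone oxidoreductase of the inner mitochondrial membrane, was followed at the level of its nuclear transcripts in microglia, neuron and astrocyte fractions of the mouse frontal cortex. The members were all genes of the combined count table whose symbol is Ndufa, Ndufb, Ndufc, Ndufs or Ndufv followed by a digit, together with Ndufab1, with assembly factors (Ndufaf) and pseudogene symbols left out. The rule found 43 of 56883 genes. Of these, 37 encode subunits of the complex and 6 do not: Ndufa4, now placed with cytochrome c oxidase (complex IV), its paralog Ndufa4l2, and the gene copies Ndufb11b, Ndufb4b, Ndufb4c and Ndufs6b. Counts and summaries of "the subunits" below refer to the 37.

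Mice were B6;D2-Tg(S100B-EGFP)1Wjt/J, whose S100B-driven EGFP transgene all groups carried, and received clozapine at 10 mg/kg, risperidone at 1 mg/kg or vehicle by daily intraperitoneal injection over 14 days, between postnatal days 60 and 74, and were killed on day 75. The labels call the animals adult males in one place and male and female in another. Frontal cortices of 5 animals formed a pool, and each treatment had 2 pools, labelled batch 1 and batch 2. Each pool gave 3 fractions by successive immunopanning, in which cells stick to antibody-coated dishes: CD45-bound microglia, Thy1-bound neurons and HepaCAM-bound astrocytes in this order. Endothelial cells were depleted before the first step and the oligodendrocyte lineage between the microglia and neuron steps. This made 18 RNA-seq libraries in 9 groups of n = 2, with 4.71 to 13.4 M assigned counts each.

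The fraction labels were checked against marker genes, summed as shares of the library total in counts-per-million units (CPM). The 12 neuron markers summed to 6742 to 11127 CPM in the neuron fraction, 2863 to 5482 CPM in the astrocyte fraction and 1548 to 5690 CPM in the microglia fraction, so the neuron fraction was highest but not alone. The 12 astrocyte markers summed to 13261 to 20119 CPM in the astrocyte fraction, 4088 to 7659 CPM in the neuron fraction and 2258 to 5459 CPM in the microglia fraction. The 12 microglia markers reached 6028 to 11928 CPM in the microglia fraction and at most 1181 and 1749 CPM in the neuron and astrocyte fractions. Oligodendrocyte transcripts remained despite the depletion: 12 markers, of which Mbp was the most abundant and none was at 0, summed to 5434 to 28217 CPM in the neuron fraction, 9924 to 36921 CPM in the astrocyte fraction and 690 to 3018 CPM in the microglia fraction. In such fractions, fewer cells of a type and less RNA per cell cannot be told apart.

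Complex I takes electrons from NADH in the matrix, passes them along a chain of iron-sulfur clusters to ubiquinone and uses the energy to pump protons, which ATP synthase then uses to make ATP. Its catalytic core is shared with bacteria: the nuclear genome encodes the core subunits of the hydrophilic matrix arm, and mitochondrial DNA those of the proton-pumping membrane arm. Around the core sit accessory subunits that stabilise the matrix arm and the proximal and distal parts of the membrane arm. Neurons rely heavily on this chain for ATP, while astrocytes and microglia can also draw much of theirs from glycolysis. All 37 mitochondrially encoded features, the Nd subunit genes among them, were listed at 0 counts in every library, so the report covers nuclear subunits only. The nuclear genome's 7 core subunits, 9 matrix arm, 9 proximal and 11 distal membrane arm accessory subunits and the acyl carrier Ndufab1 all passed the low-count filter in every comparison.

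Promoters of the subunit genes were read from RefSeq because most members were higher in the same fractions. For 33 of the 37 genes a window from 250 bases before to 50 bases after a transcription start was given (GRCm38.p6, an older build than the GRCm39 of the counts). The palindromic GC-rich binding motif of NRF1, a regulator of respiratory genes, occurred on either strand in 7 of the 33 genes (21.2%), against 5.19% of 27025 genes with a window. The YY1 motif AAGATGGCG occurred in 5 of 33 (15.2%, against 1.64%) and the ETS motif CCGGAAG, read by GABP among others, in 4 of 33 (12.1%, against 9.93%). No match of one motif overlapped a match of another, and 15 of 33 genes (45.5%) held at least 1 of the 3, against 15.1% of all genes. A match describes letters only. The promoters shown are those of Ndufb4, Ndufa5, Ndufs7 and Ndufs8. Ndufb4 has 3 NRF1 matches. Ndufa5 has 1, close to the start shown, and differed between batches in the astrocyte fraction. Ndufs7 is a core gene with a YY1 match. Ndufs8, the core gene that behaved unlike the others between fractions, has an ETS match on the reverse strand. Each promoter runs 5′ to 3′ on the gene's strand, with the matched letters in capitals.
Ndufb4, chr16:37654319-37654618, minus strand: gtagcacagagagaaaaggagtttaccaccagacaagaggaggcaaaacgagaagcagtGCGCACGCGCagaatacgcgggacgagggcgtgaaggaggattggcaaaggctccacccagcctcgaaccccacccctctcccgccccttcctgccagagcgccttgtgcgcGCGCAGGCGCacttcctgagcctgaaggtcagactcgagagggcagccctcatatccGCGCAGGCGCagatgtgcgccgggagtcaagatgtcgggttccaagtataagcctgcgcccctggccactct
Ndufa5, chr6:24527641-24527940, minus strand: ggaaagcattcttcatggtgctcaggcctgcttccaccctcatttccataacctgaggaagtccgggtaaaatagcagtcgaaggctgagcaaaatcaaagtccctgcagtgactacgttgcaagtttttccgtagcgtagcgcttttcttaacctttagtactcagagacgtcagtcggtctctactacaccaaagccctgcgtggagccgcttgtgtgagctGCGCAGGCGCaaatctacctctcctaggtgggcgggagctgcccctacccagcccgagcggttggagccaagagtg
Ndufs7, chr10:80249199-80249498, plus strand: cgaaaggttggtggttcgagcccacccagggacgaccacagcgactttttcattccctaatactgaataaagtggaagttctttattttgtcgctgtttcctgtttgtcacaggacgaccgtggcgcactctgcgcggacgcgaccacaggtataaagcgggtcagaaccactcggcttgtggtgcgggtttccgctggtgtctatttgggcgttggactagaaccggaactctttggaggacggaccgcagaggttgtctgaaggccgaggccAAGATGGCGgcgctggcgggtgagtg
Ndufs8, chr19:3912725-3913024, minus strand: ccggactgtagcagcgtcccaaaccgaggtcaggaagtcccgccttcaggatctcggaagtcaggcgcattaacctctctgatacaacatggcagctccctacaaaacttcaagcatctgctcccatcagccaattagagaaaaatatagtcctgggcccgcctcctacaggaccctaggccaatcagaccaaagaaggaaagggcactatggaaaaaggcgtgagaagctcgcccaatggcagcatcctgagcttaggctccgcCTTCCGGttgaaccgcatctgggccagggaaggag
The NRF1 matches began 191, 79 and 22 bases before the start of Ndufb4 and 26 bases before the Ndufa5 start shown. A window at another Ndufa5 start holds the same match, 190 bases before that start. The matches of Ndufs7 and Ndufs8 lay 25 and 16 bases into the transcript.

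The summed level of the 37 subunits was 1971 ± 198 CPM in the neuron fraction, 2098 ± 369 CPM in the astrocyte fraction and 1083 ± 135 CPM in the microglia fraction (SD, n = 6 libraries each). Within the 6 pools, the neuron fraction exceeded the microglia fraction by 888 ± 129 CPM and the astrocyte fraction exceeded it by 1015 ± 296 CPM, in 6 of 6 pools each time. The neuron minus astrocyte difference was −127 ± 362 CPM, within its spread over the 6 pools, but its sign went with batch. It was positive in the 3 batch 2 pools and negative in the 3 batch 1 pools. Neuron and astrocyte means were 1977 and 1827 CPM in batch 2, against 1966 and 2370 CPM in batch 1 (n = 3 libraries each). The lowest neuron or astrocyte library, at 1578 CPM, still lay above the highest microglia library, at 1270 CPM.

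**Figure D1:**
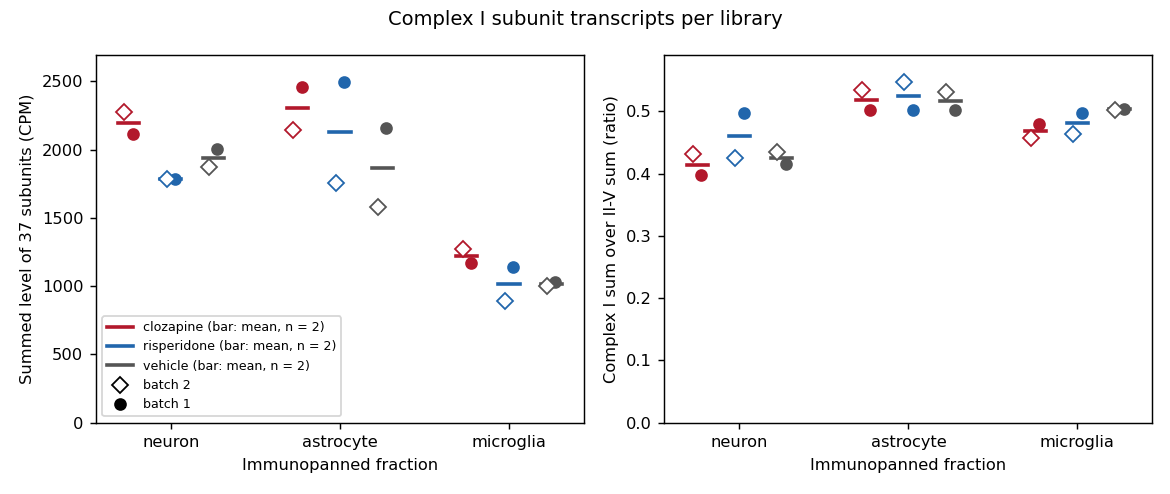
Summed CPM of the 37 complex I subunits (left) and its ratio to the summed CPM of 38 nuclear subunits of complexes II to V (right), per library by fraction and treatment; diamonds are batch 2, circles batch 1 and bars means of n = 2. The microglia libraries (893 to 1270 CPM) lie below all neuron and astrocyte libraries (1578 to 2495 CPM), and the ratio is highest in the astrocyte fraction (0.501 to 0.547).

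Relative to the other nuclear respiratory subunits the order was different. The ratio of summed complex I to summed complexes II to V, 38 genes, was 0.433 ± 0.034 in the neuron fraction, 0.519 ± 0.020 in the astrocyte fraction and 0.484 ± 0.020 in the microglia fraction (SD, n = 6 each). It was lower in the neuron fraction than in the astrocyte and the microglia fraction of the same pool in 6 of 6 pools. The mean differences were −0.0860 ± 0.0417 and −0.0509 ± 0.0345 (SD). In the batch 1 risperidone pool they were only −0.0045 and −0.0010. Core subunits made up 20.1 ± 2.1% of complex I counts in the neuron fraction, 20.4 ± 2.5% in the astrocyte fraction and 24.3 ± 2.5% in the microglia fraction. Within pools the difference in this share was −4.22 percentage points for neuron minus microglia and −3.84 points for astrocyte minus microglia, below 0 in 6 of 6 pools each.

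Set per kilobase of exon, which allows genes to be compared, Ndufa12 led in all 3 fractions, with mean levels of 92.4 (neuron), 113 (astrocyte) and 39.8 (microglia) CPM per kilobase. It is an accessory subunit of the matrix arm whose place an assembly factor, Ndufaf2, holds during assembly. In the neuron fraction Ndufb9, at 76.1 ± 33.8, and Ndufa1, at 74.0 ± 21.4 CPM per kilobase (SD, n = 6), came next and did not differ from Ndufa12 beyond their spread. Ndufb2, Ndufab1 and Ndufb5 stood at the bottom, at 4.54, 4.97 and 5.64 CPM per kilobase in the neuron fraction. All 3 have long annotated exons (4995 to 6883 bases), so their per-kilobase level depends on the annotated length. By class, the median level in the neuron, astrocyte and microglia fractions was 21.4, 23.0 and 12.4 CPM per kilobase for the core, 43.2, 44.8 and 25.6 for the matrix arm, 34.4, 40.1 and 19.2 for the proximal and 21.1, 19.7 and 11.2 for the distal membrane arm accessory subunits. Levels per kilobase thus spanned more than an order of magnitude across the 37 subunits in each fraction.

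**Figure D2:**
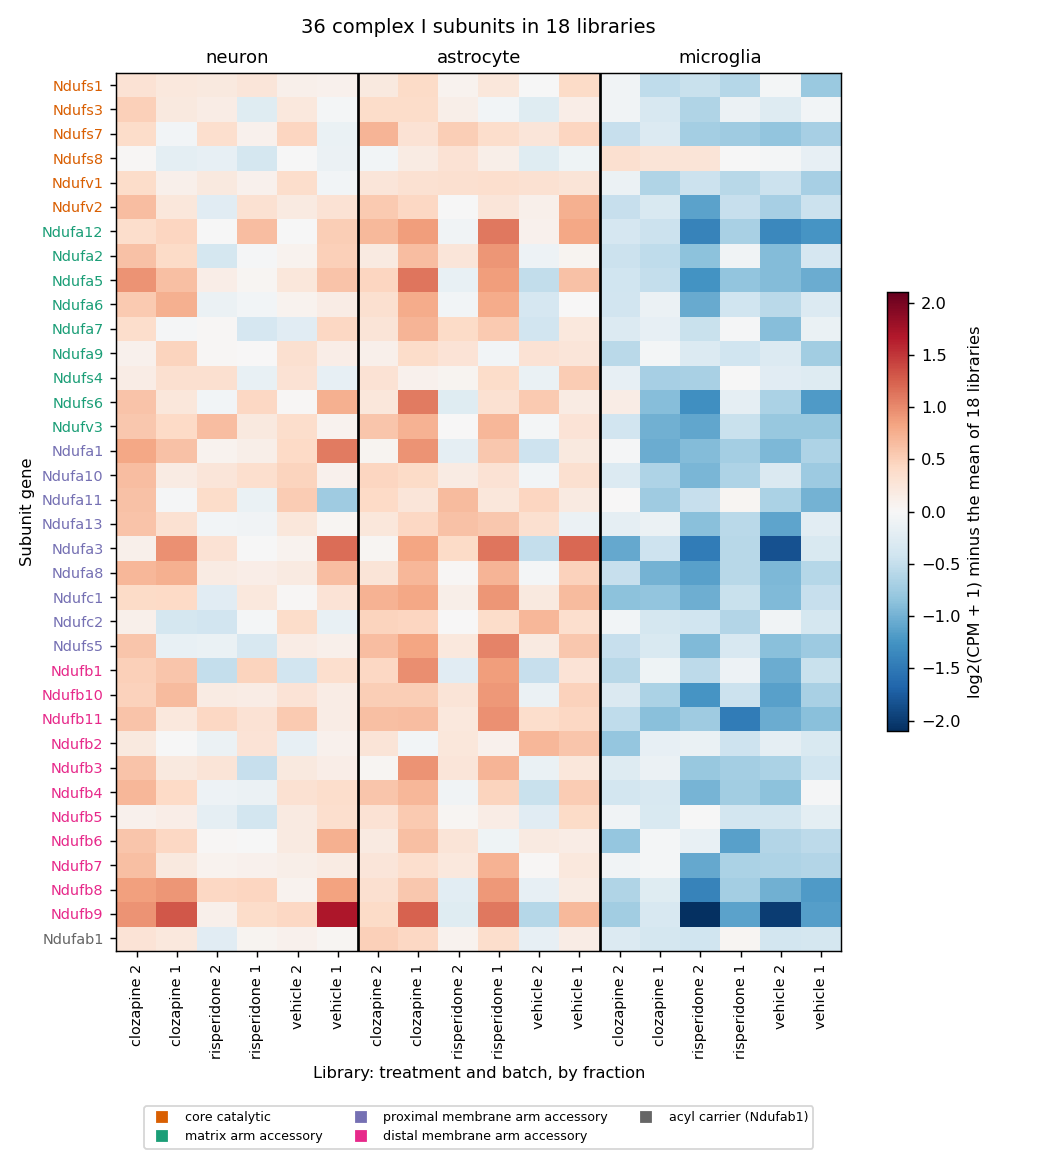
Level of 36 of the 37 subunits (rows, grouped by their place in the complex) in each of the 18 libraries (columns, by fraction, treatment and batch) as log2(CPM + 1) minus the mean over the 18 libraries. Nearly all rows are lower in the microglia columns, the row of Ndufs8 is not, and batch 1 astrocyte columns are higher than batch 2 columns for many accessory subunits.

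The core subunits carry the redox chemistry, and levels of 6 of them are given per library, batch 1 before batch 2 in each pair. Ndufv1, which binds NADH and the flavin that accepts its electrons, had 49.6 and 60.8 CPM under clozapine, 49.1 and 53.02 CPM under risperidone and 44.1 and 59.7 CPM under vehicle in the neuron fraction. In the astrocyte fraction it had 57.99 and 55.3 CPM under clozapine, 59.4 and 58.3 CPM under risperidone and 55.7 and 57.6 CPM under vehicle. Its microglia libraries had 29.3 and 42.2 CPM under clozapine, 30.3 and 33.4 CPM under risperidone and 28.1 and 33.4 CPM under vehicle, all below the lowest neuron library.

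Ndufv2, its iron-sulfur partner at the NADH end, had 45.1 and 60.04 CPM under clozapine, 47.7 and 32.2 CPM under risperidone and 46.97 and 43.6 CPM under vehicle in the neuron fraction. The astrocyte libraries showed 51.6 and 55.7 CPM under clozapine, 45.5 and 37.8 CPM under risperidone and 64.5 and 41.03 CPM under vehicle for Ndufv2. In the microglia fraction the values were 30.1 and 26.9 CPM under clozapine, 26.9 and 16.9 CPM under risperidone and 27.4 and 23.1 CPM under vehicle, and the highest of them lay below the lowest neuron and astrocyte libraries.

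Ndufs1, the largest core subunit, which holds several iron-sulfur clusters, had 103 and 108 CPM under clozapine, 105 and 102 CPM under risperidone and 93.2 and 94.3 CPM under vehicle in the neuron fraction. It stood at 117 and 102 CPM under clozapine, 104 and 92.1 CPM under risperidone and 117 and 87.3 CPM under vehicle in the astrocyte fraction. The microglia fraction gave 60.8 and 83.3 CPM under clozapine, 57.7 and 62.97 CPM under risperidone and 50.8 and 85.4 CPM under vehicle, with the batch 2 library above the batch 1 library in each treatment.

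Ndufs7, bearer of the last iron-sulfur cluster before ubiquinone, had 50.9 and 69.6 CPM under clozapine, 56.3 and 67.5 CPM under risperidone and 48.1 and 72.4 CPM under vehicle in the neuron fraction. Its level was 65.6 and 87.7 CPM under clozapine, 68.6 and 76.4 CPM under risperidone and 72.9 and 63.5 CPM under vehicle in the astrocyte fraction. With 43.2 and 37.4 CPM under clozapine, 31.2 and 31.96 CPM under risperidone and 32.4 and 29.4 CPM under vehicle, the microglia fraction was again lowest without overlap.

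Ndufs3, a matrix arm core subunit without a cluster of its own, had 35.6 and 43.9 CPM under clozapine, 25.5 and 34.1 CPM under risperidone and 29.8 and 35.9 CPM under vehicle in the neuron fraction. Astrocyte values were 40.2 and 40.5 CPM under clozapine, 29.6 and 33.3 CPM under risperidone and 34.01 and 25.4 CPM under vehicle. Microglia values were 24.04 and 28.96 CPM under clozapine, 28.01 and 19.3 CPM under risperidone and 29.5 and 25.1 CPM under vehicle, so here the fractions overlapped.

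Ndufs8, which carries a pair of clusters on the path to ubiquinone, did not follow this order. It had 26.5 and 31.1 CPM under clozapine, 23.5 and 27 CPM under risperidone and 28.2 and 30.7 CPM under vehicle in the neuron fraction. The astrocyte fraction had 34.8 and 29.4 CPM under clozapine, 33.6 and 37.97 CPM under risperidone and 28.6 and 25.6 CPM under vehicle. The microglia fraction had 37.4 and 39.1 CPM under clozapine, 30.7 and 37.1 CPM under risperidone and 27.2 and 29.6 CPM under vehicle, so the 3 fractions overlapped, and the microglia mean of 33.5 ± 4.9 CPM was the highest of the 3, beside 27.8 ± 2.9 CPM in the neuron and 31.7 ± 4.6 CPM in the astrocyte fraction (SD, n = 6).

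Differences between fractions were tested with edgeR's quasi-likelihood test over all 37310 genes that passed the filter, with Benjamini-Hochberg adjustment, and a gene is called where its adjusted p is under 0.05. Such p-values measure the spread between pools of animals, and the 3 fractions of a pool share its animals. The log2 differences are scaled by TMM factors, which low genes influenced here: the median of abundant genes (mean CPM of 8 or more) was 0.55 for neuron minus microglia, 0.22 for astrocyte minus microglia and 0.28 for neuron minus astrocyte. Differences should be read against these medians. With neuron over microglia, 36 of 37 subunits were called higher and none lower, where 18.8% of all genes tested were called higher and 28.2% lower. The subunits' median log2 difference was 1.31, or 0.77 above that of abundant genes, and ranged between 0.32 and 2.64. Scaled by library totals alone, 36 of 37 differences stayed above 0 and 30 were called. With TMM factors taken from abundant genes only, 33 were called.

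Core members called higher in the neuron than in the microglia fraction included Ndufs7 with a log2 difference of 1.43 (SE 0.24, adjusted p = 8.2e-05), Ndufv2 with 1.41, Ndufv1 with 1.27, Ndufs1 with 1.17 and Ndufs3 with 0.98. Ndufs3 lost its call under library totals. Ndufs8 was the only subunit not called, with 0.32 (SE 0.21, adjusted p = 0.22) under TMM scaling and a value of the opposite sign, −0.26, under library totals and −0.21 with factors from abundant genes. All 9 matrix arm, 9 proximal and 11 distal accessory subunits and Ndufab1 were called higher.

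The largest differences were among membrane arm accessory subunits. Ndufb9 (ENSMUSG00000022354.5, GRCm39 chr15:58805605-58811337), a distal arm subunit of the LYR family that docks an acyl carrier protein, ranged over 44.2 to 135 CPM with a median of 67.6 CPM in the neuron fraction. It ranged over 26.8 to 97.8 CPM with a median of 60.3 CPM in the astrocyte fraction and 8.79 to 32.4 CPM with a median of 18 CPM in the microglia fraction, with no overlap between neuron and microglia libraries. Its neuron minus microglia log2 difference was 2.64 (SE 0.37, adjusted p = 1.1e-05). Exons of Ndufb9 share 19.5% of their length with another gene on the same strand, Gm49356, and reads in that stretch were counted for both.

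Ndufb8, a distal arm subunit, ranged over 44.9 to 82.03 CPM with a median of 67.97 CPM in the neuron fraction against 15.5 to 35.5 CPM with a median of 23.1 CPM in the microglia fraction. Its log2 difference was 2.06 (SE 0.28, adjusted p = 1e-05), and 14.9% of its exon length overlaps Gm20538 on the same strand. Ndufb11, an X-linked distal arm subunit, ranged over 26.9 to 37.04 CPM with a median of 31.7 CPM in the neuron fraction and 8.14 to 16.4 CPM with a median of 12.7 CPM in the microglia fraction. Its log2 difference was 1.94 (SE 0.27, adjusted p = 9.1e-06), with 12.9% of its exon length shared with Rbm10 on the opposite strand, and the counting used no strand setting. Ndufa8, a proximal subunit of the intermembrane space side with no such overlap, ranged over 28.7 to 44.5 CPM with a median of 35.6 CPM in the neuron fraction and 11.3 to 18.3 CPM with a median of 15.04 CPM in the microglia fraction, a log2 difference of 1.82 (SE 0.27, adjusted p = 2.4e-05). Each of these 3 separated the neuron from the microglia libraries without overlap.

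With astrocyte over microglia, 32 of 37 subunits were called higher and none lower, where 6.85% of all genes were called higher and 6.18% lower. The median log2 difference was 1.03, or 0.81 above that of abundant genes. Ndufb11 led by p with 1.68 (SE 0.26, adjusted p = 7.3e-05), and ranged over 28.2 to 47.8 CPM with a median of 35.6 CPM in the astrocyte fraction. It was followed by Ndufc1, a proximal subunit, with 1.56 (SE 0.25, adjusted p = 0.00011), and by Ndufa12 with 1.72 (SE 0.30, adjusted p = 0.00024). Ndufb9 had the largest difference, 2.00 (SE 0.36, adjusted p = 0.00033). Not called were the core subunits Ndufs8, at 0.04 and of the opposite sign under library totals (−0.08), and Ndufs3, at 0.49, with the accessory subunits Ndufb5 at 0.59, Ndufs4 at 0.69 and Ndufa7 at 0.78. The count fell to 14, 16 and 19 without the batch 1 astrocyte library of the risperidone, the vehicle or the clozapine pool, and to 0 with the vehicle libraries alone. In the core, Ndufs1 (0.77) lost its call without any 1 of 16 of the 18 libraries and Ndufv1 (0.92) without 6.

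With neuron over astrocyte, 0 of 37 subunits were called in edgeR's quasi-likelihood test with Benjamini-Hochberg adjustment and 0 by DESeq2, where 9.17% of all genes were called higher and 14.6% lower. An unadjusted p under 0.05 was reached by 4 subunits, against 40.6% of all genes. The median log2 difference of the subunits was 0.32, or 0.03 above that of abundant genes. It ran between 0.09 and 0.54 without the batch 2 and the batch 1 astrocyte library under risperidone. This median averages batches that differed. In TMM-scaled log2 CPM, the batch 2 clozapine, risperidone and vehicle pools had medians of 0.72, 0.96 and 1.11, with 37 of 37 subunits higher in each. The batch 1 pools had 0.13, −0.84 and −0.03, with 25, 0 and 16 of 37 higher. Tests of this dependence on batch, and its change with scaling, are given below. Under TMM scaling 34 differences were above 0, but under library totals only 7 were, and 2 were then called lower, Ndufs5 and Ndufc2. With the pool as a block, 1 subunit was called, Ndufb9 (adjusted p = 0.046). The smallest p belonged to Ndufb8, with 0.70 (SE 0.27, unadjusted p = 0.017, adjusted p = 0.063), and to Ndufa1, a small proximal subunit, with 0.68 (SE 0.29, unadjusted p = 0.025, adjusted p = 0.079). At the other end lay Ndufs5, a proximal subunit on the intermembrane space side, with 23.6 to 45.6 CPM with a median of 29.9 CPM in the neuron fraction and 34.6 to 63.4 CPM with a median of 46.5 CPM in the astrocyte fraction. Its log2 difference was −0.15 (SE 0.27, adjusted p = 0.69) under TMM scaling.

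**Figure D3:**
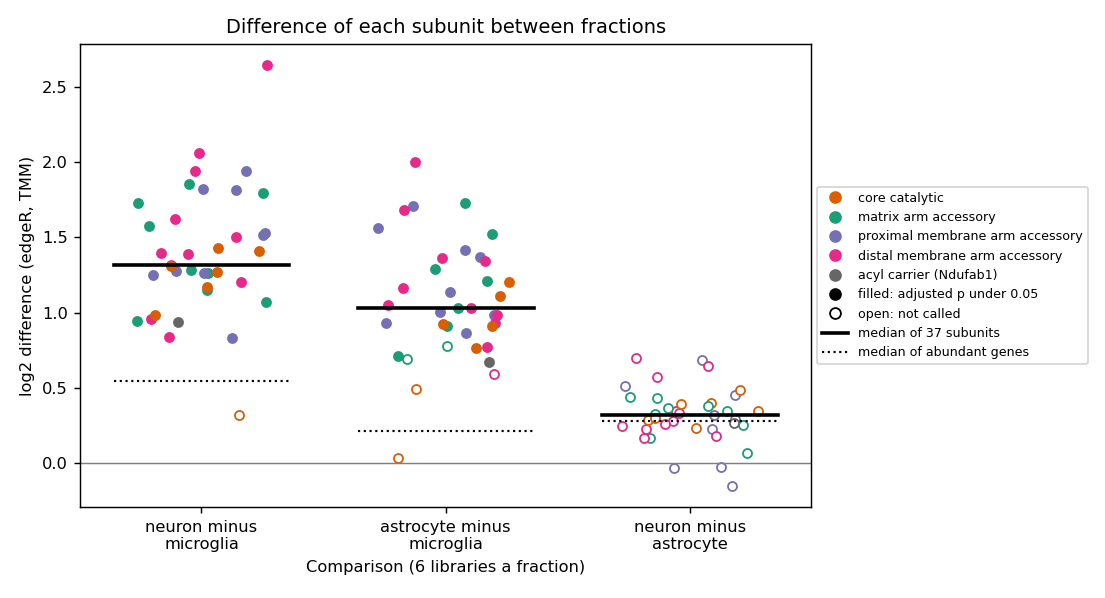
Log2 difference of each of the 37 subunits (points, coloured by place in the complex; filled where adjusted p is under 0.05 in edgeR) in 3 comparisons of fractions, with 6 libraries a fraction. Thick lines are the subunits' medians (1.31, 1.03 and 0.32) and dotted lines those of genes with a mean CPM of 8 or more (0.55, 0.22 and 0.28); the low open orange point on the left is Ndufs8.

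Neuron and astrocyte libraries carried more oligodendrocyte transcripts than microglia libraries, and all 12 oligodendrocyte markers were called higher in both comparisons with microglia. Erythroid markers, 5 genes, ran the other way, at 1464 to 15291 CPM in the microglia fraction and at most 361 and 571 CPM in the neuron and astrocyte fractions. Their part in the subunit differences was not tested. Of the other nuclear respiratory genes, 38 subunits of complexes II to V were listed. Called higher were 35 in neuron over microglia, where 18.8% of all genes were, with a median of 1.21 against 0.55 for abundant genes. In astrocyte over microglia 22 were, where 6.85% of all genes were, with a median of 0.97 against 0.22. In neuron over astrocyte 4 were, a share near the 9.17% of all genes, with a median of 0.43 against 0.28.

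Assembly factors build complex I but are not part of it. Of 18 listed, 17 were matched to a counted gene, and Coa1 was not. Of the 17, 11 were called higher and none lower in neuron over microglia, where 18.8% of all genes were called higher. The median log2 difference was 0.79. Under library totals or factors from abundant genes, 5 or 6 were called. Ndufaf8 had 1.51 (SE 0.33, adjusted p = 0.00084), Ndufaf2, the factor replaced by Ndufa12, had 1.29 (SE 0.23, adjusted p = 0.00013) and Ecsit, which acts in membrane arm assembly, had 1.21 (SE 0.24, adjusted p = 0.00048). The other 8 called were Ndufaf5, Tmem126b, Ndufaf1, Timmdc1, Tmem70, Ndufaf7, Acad9 and Dmac1. In astrocyte over microglia, where 6.85% of all genes were called higher, 3 were, Ndufaf2 (1.01), Tmem126b (0.71) and Acad9 (0.59), and in neuron over astrocyte none was. With factors from abundant genes Ndufaf2 alone was called in astrocyte over microglia. Summed assembly factors per summed subunits came to 0.116 ± 0.015 in the neuron fraction, 0.122 ± 0.021 in the astrocyte fraction and 0.179 ± 0.022 in the microglia fraction (SD, n = 6). The ratio was lower in the neuron and in the astrocyte fraction than in the microglia fraction of the same pool in 6 of 6 pools.

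Of 9 regulators of mitochondrial biogenesis, 5 were called higher in neuron over microglia, where 18.8% of all genes were. Ppargc1a, a coactivator that drives respiratory gene expression, had 1.45 (SE 0.29, adjusted p = 0.00038) and its relative Ppargc1b had 0.99 (SE 0.21, adjusted p = 0.00065). The mitochondrial transcription genes Tfb2m and Polrmt, at 0.87 and 0.78, and the nuclear receptor Esrra, at 0.62, were also called, but none of these 3 was under library totals or with factors from abundant genes. Transcripts of the motif-binding factors themselves were not called: Nrf1 had −0.19 (SE 0.19, adjusted p = 0.42), Gabpa −0.02 (SE 0.23, adjusted p = 0.96) and Yy1 0.11 (SE 0.22, adjusted p = 0.70). Ppargc1a was the regulator of the 9 called in astrocyte over microglia (1.10), where 6.85% of all genes were called higher. Ppargc1b was the regulator called in neuron over astrocyte (0.92), where 9.17% of all genes were. Such counts lie near the shares of all genes.

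Among the members outside complex I, Ndufa4 had 37.2 and 56.1 CPM under clozapine, 37.1 and 36.4 CPM under risperidone and 36.6 and 42.96 CPM under vehicle in the neuron fraction. Its astrocyte values were 62.4 and 41.8 CPM under clozapine, 36.8 and 32.2 CPM under risperidone and 31.3 and 22.1 CPM under vehicle. Its microglia values were 18.8 and 24.9 CPM under clozapine, 18.4 and 22.7 CPM under risperidone and 16.8 and 15.9 CPM under vehicle, all below those of the neuron fraction. Ndufa4 was called higher in neuron over microglia, with 1.64 (SE 0.25, adjusted p = 3e-05), and in astrocyte over microglia, with 1.04 (SE 0.25, adjusted p = 0.0048), as most complex I subunits were. The second call was lost without the batch 1 astrocyte library under vehicle.

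Ndufa4l2, a paralog that hypoxia induces in other tissues, was low, at 0.326 to 8.06 CPM over the libraries, with its lowest values near the detection limit. It had 0.356 and 1.42 CPM under clozapine, 2.30 and 0.326 CPM under risperidone and 1.31 and 1.67 CPM under vehicle in the neuron fraction. The astrocyte fraction had 0.67 and 2.28 CPM under clozapine, 0.469 and 8.06 CPM under risperidone and 0.791 and 5.28 CPM under vehicle, with the 3 batch 2 libraries above the 3 batch 1 libraries. The microglia fraction had 2.16 and 3.25 CPM under clozapine, 5.49 and 2.56 CPM under risperidone and 0.713 and 2.20 CPM under vehicle. No comparison of fractions was called.

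Ndufb4b, a copy of Ndufb4 whose reads may be shared with its parent, had 14.1 and 25.02 CPM under clozapine, 12.4 and 12.4 CPM under risperidone and 12.4 and 16.2 CPM under vehicle in the neuron fraction. It had 19.4 and 20.96 CPM under clozapine, 21.9 and 8.48 CPM under risperidone and 15.03 and 10.7 CPM under vehicle in the astrocyte and 11.6 and 9.97 CPM under clozapine, 12.3 and 5.43 CPM under risperidone and 7.13 and 5.76 CPM under vehicle in the microglia fraction. All 6 neuron and 4 of 6 astrocyte libraries lay above the microglia libraries, and both differences from microglia were called, at 1.41 (SE 0.32, adjusted p = 0.0013) and 1.07 (SE 0.32, adjusted p = 0.025). The astrocyte over microglia difference ranged over 0.55 to 1.28 when single libraries were left out. Its call was lost without any 1 of 7 of the 18 libraries: those of the batch 1 vehicle, clozapine and risperidone pools in the astrocyte fraction, and of the batch 1 clozapine and the batch 2 vehicle, clozapine and risperidone pools in the microglia fraction. It was also lost with factors from abundant genes.

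The other 3 copies stayed low. Ndufb11b had 0.402 and 0.76 CPM under clozapine, 0.751 and 1.48 CPM under risperidone and 0.633 and 4.30 CPM under vehicle in the astrocyte fraction and 0.27 and 0 CPM under clozapine, 2.08 and 0.799 CPM under risperidone and 1.28 and 0.49 CPM under vehicle in the microglia fraction. Of its 6 neuron libraries 4 were at 0, the risperidone libraries having 0.46 and 0.326 CPM. It was called lower in neuron over astrocyte and neuron over microglia, with adjusted p of 0.013 and 0.028; with so few counts no fold is given, and the second call was lost with the pool as block (adjusted p = 0.072) and without any 1 of 5 libraries. The first was lost without the batch 2 astrocyte library under vehicle. Ndufb4c had 0.444 and 2.54 CPM under clozapine, 0.307 and 1.63 CPM under risperidone and 2.04 and 1.41 CPM under vehicle in the neuron fraction, 0.67 and 1.19 CPM under clozapine, 2.44 and 1.70 CPM under risperidone and 0.316 and 0.782 CPM under vehicle in the astrocyte fraction and 1.22 and 0.63 CPM under clozapine, 0 and 0.32 CPM under risperidone and 1.71 and 0.245 CPM under vehicle in the microglia fraction. It was called higher in neuron over microglia (adjusted p = 0.041), and not with the pool as block (adjusted p = 0.096), under library totals or without any 1 of 11 of the 18 libraries. Ndufs6b, which did not pass the low-count filter, had at most 0.46 CPM in the neuron fraction, 0.791 CPM in the astrocyte fraction and 1.57 CPM in the microglia fraction.

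Batch 2 and batch 1, each made of 1 pool per treatment, were compared within each fraction with treatment in the model. In the astrocyte fraction 13 of 37 subunits were called lower in batch 2 and none higher, where 3.22% of 26622 genes tested were called lower and 1.7% higher. All 37 log2 differences were below 0, with a median of −0.74, or 0.53 below that of abundant genes. Scaled by library totals, 5 of the 37 were above 0 and 4 were called; with TMM factors from abundant genes 2 were above 0 and 5 were called. Summed subunits came to 2145, 1758 and 1578 CPM in the batch 2 astrocyte libraries of the clozapine, risperidone and vehicle pools, against 2459, 2495 and 2154 CPM in batch 1. The batches did not overlap.

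Ndufb9 had 54.4, 34.2 and 26.8 CPM in batch 2, against 97.8, 89.4 and 66.3 CPM in batch 1, for the clozapine, risperidone and vehicle pools in this order. Its log2 difference was −1.57 (SE 0.25, adjusted p = 0.0016). Ndufa3, a small proximal subunit, had 45.9, 59.2 and 31.1 CPM in batch 2 against 79.3, 97.6 and 104 CPM in batch 1, a difference of −1.47 (SE 0.26, adjusted p = 0.0026). Ndufa5, an accessory subunit of the ubiquinone-reducing part of the matrix arm, had 64.2, 41.8 and 32.4 CPM in batch 2 against 103, 87.03 and 71.97 CPM in batch 1, a difference of −1.36 (SE 0.24, adjusted p = 0.0032). In all 3 genes each batch 2 library lay below each batch 1 library.

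Ndufa1 (−1.19) and the distal subunit Ndufb1 (−1.22) were also called lower, and 0 of 7 core subunits were, their median being −0.47. Of complexes II to V, 17 of 38 were called lower (5 under library totals and 8 with factors from abundant genes), as was Ndufa4 at −0.82 (SE 0.22, adjusted p = 0.04). Ndufa4 was not called under library totals (−0.43, adjusted p = 0.17) or with factors from abundant genes (−0.61, adjusted p = 0.10), nor without any 1 of the 4 vehicle and risperidone libraries. Ndufa4l2, given above per library, was not called, at 2.46 (SE 0.76, adjusted p = 0.068). The called subunits had shorter exons, with a median length of 1032 bases against 2124 bases for those not called. Other quantities moved with batch in the astrocyte fraction: the 12 oligodendrocyte markers summed to 9924 to 12921 CPM in batch 2 against 26744 to 36921 CPM in batch 1, and 8 genes of the dissociation response, such as Fos, summed to 2457 to 3073 CPM in batch 2 against 748 to 1153 CPM in batch 1. Their part in the result was not tested. The count of calls depended on single libraries: it was 0 without the vehicle, 3 without the risperidone and 25 without the clozapine library of batch 1, and 2, 1 and 25 without the vehicle, risperidone and clozapine library of batch 2. Among the named subunits, the call was lost without any 1 of 2 (Ndufb9, Ndufa3), 3 (Ndufa5, Ndufa1) or 4 (Ndufb1) of the 6 libraries, all of them vehicle or risperidone libraries, and for Ndufa1 also under library totals.

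In the microglia fraction 1 subunit was called lower in batch 2, Ndufa3, where 1.6% of 29229 genes were called lower and 3.21% higher. It had 20.6, 15.3 and 11.8 CPM in batch 2 against 32.7, 29.3 and 35.4 CPM in batch 1, a log2 difference of −1.05 (SE 0.25, adjusted p = 0.015), without overlap. Ndufb9 came next with −0.75 (SE 0.26, adjusted p = 0.11). The median over the subunits was −0.13, and 14 of 37 were above 0. The median ran between −0.32 and 0.03 when single libraries were left out, the positive value being that without the batch 1 risperidone library. The call of Ndufa3 was lost without either vehicle library and when all 18 libraries shared 1 fit. In this fraction the 5 erythroid markers summed to 1464 to 4614 CPM in batch 2 against 6616 to 15291 CPM in batch 1, and the 12 neuron markers to 3201 to 5690 CPM in batch 2 against 1548 to 1937 CPM in batch 1. The 12 astrocyte markers summed to 2258 to 2910 CPM in batch 2 against 3225 to 5459 CPM in batch 1. The batches did not overlap in any of these 3 sums, and their part in the result was not tested.

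In the neuron fraction none of the 37 was called by edgeR's quasi-likelihood test with Benjamini-Hochberg adjustment, where 0.178% of 21938 genes were called in either direction. An unadjusted p under 0.05 was reached by 10 subunits, against 25% of all genes. DESeq2 called 1 subunit, Ndufa11, where it called 1292 of all genes. Ndufa11, a multipass proximal subunit at the contact with complex III, had 44.1, 37.4 and 41.5 CPM in batch 2 against 28, 25.6 and 16.6 CPM in batch 1. The batches did not overlap, and the log2 difference was 0.98 (SE 0.22, unadjusted p = 0.0011, adjusted p = 0.07) in edgeR. The median difference of the subunits was 0.17, as for abundant genes. Oligodendrocyte markers summed to 5434 to 6103 CPM in batch 2 and 17522 to 28217 CPM in batch 1 of this fraction too. The neuron markers themselves summed to 10109 to 11127 CPM in batch 2 against 6742 to 7690 CPM in batch 1. Dissociation response genes summed to 1153 to 1509 CPM in batch 2 against 706 to 1014 CPM in batch 1. The part of these sums in the result was not tested.

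The core share of complex I counts was higher in batch 2 in all 9 pairs of libraries of the same fraction and treatment. The mean difference was 2.71 percentage points in the neuron, 3.65 points in the astrocyte and 4.12 points in the microglia fraction (3.49 ± 1.97 over the 9 pairs, SD). The fractions of a pool share its animals, so the 9 pairs are not independent.

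Whether the batch difference itself depended on the fraction was tested in 1 fit of all 18 libraries. The batch difference was called more positive in the neuron than in the astrocyte fraction for 32 of 37 subunits, with a median of 1.21 against 0.65 for abundant genes, where 8.5% of 37310 genes were called higher. Ndufa5 had 1.79 (SE 0.34, adjusted p = 0.0044) and Ndufs5 1.63 (SE 0.34, adjusted p = 0.0069). With library totals 1 was called and with TMM factors from abundant genes 2 were. The count also dropped to between 1 and 19 when a vehicle or risperidone library of the neuron or astrocyte fraction was left out. Astrocyte minus microglia gave 3 calls, all lower, Ndufa5 (−1.35), Ndufa1 (−1.45) and Ndufs1 (−1.17), where 3.69% of genes were called lower, and 0 with either other scaling. This count lay between 0 and 14 when single libraries were left out. Neuron minus microglia gave none in edgeR's quasi-likelihood test, where 0.638% of genes were called, with 8 subunits at an unadjusted p under 0.05, against 14.4% of all genes, and none called by DESeq2.

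**Figure D4:**
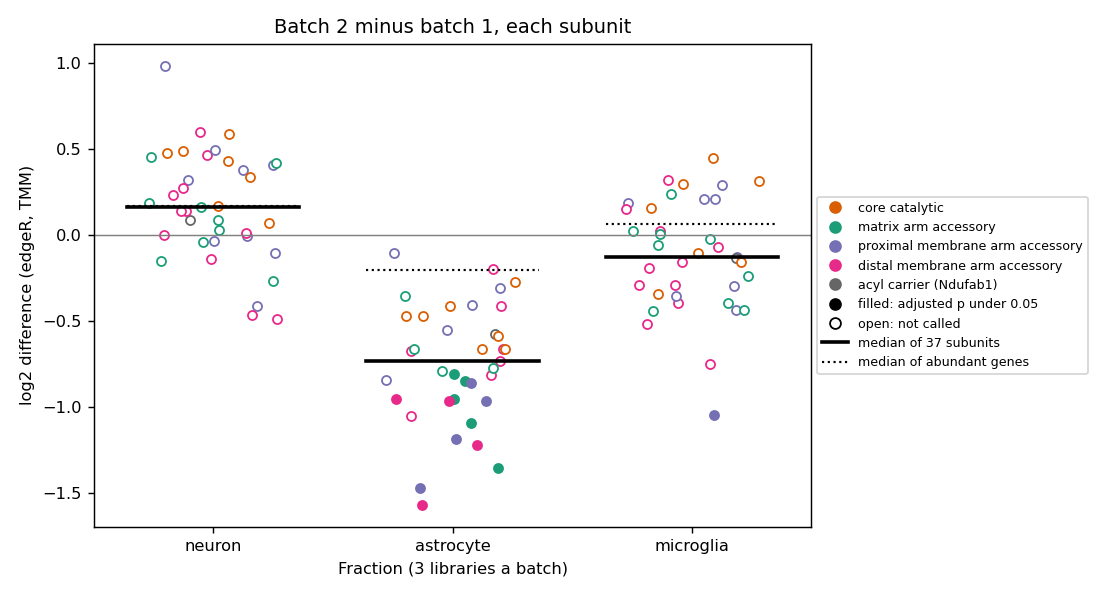
Batch 2 minus batch 1 log2 difference of each subunit (points, coloured by place in the complex; filled where adjusted p is under 0.05 in edgeR) in each fraction, with 3 libraries a batch. The astrocyte median of −0.74 (thick line) lies below that of abundant genes (dotted, −0.20), and the 13 filled astrocyte points are accessory subunits.

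The study asked how clozapine and risperidone, 2 second-generation antipsychotics, act on each cell type. No subunit was called for any drug comparison in any fraction by edgeR's quasi-likelihood test with Benjamini-Hochberg adjustment or by DESeq2. Of all genes tested, edgeR called 0% in each comparison. DESeq2 called 20 genes for clozapine minus vehicle and 7 for risperidone minus vehicle in neurons, 1 each for clozapine minus vehicle and clozapine minus risperidone in microglia, and none in the other 5 comparisons. With 2 libraries a group the test had little reach: in simulated data with the libraries' own spread, a clozapine minus vehicle change of 2-fold was recovered for 3%, 0% and 2% of 100 genes in the neuron, astrocyte and microglia fractions, and one of 4-fold for 47%, 27% and 71%. The values below therefore describe these pools. Both drugs were set against the same vehicle libraries, so their differences from vehicle are not independent.

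Clozapine minus vehicle gave positive log2 differences for 35 of 37 subunits in the neuron fraction, 35 in the astrocyte fraction and 34 in the microglia fraction, with medians of 0.30, 0.42 and 0.28. Relative to abundant genes these medians were 0.22, 0.27 and 0.20. They stayed above 0 but moved by more than 1.5 times when single libraries were left out. The neuron median ran between 0.19 (without the batch 2 clozapine library) and 0.47 (without the batch 2 vehicle library), and the astrocyte median between 0.10 and 1.02 (without the batch 2 and the batch 1 vehicle library). The microglia median ran between 0.09 (without the batch 2 clozapine library) and 0.45 (without the batch 1 vehicle library). The median was above 0 in both batches in each fraction: 0.40 in batch 2 and 0.35 in batch 1 for neurons, 0.76 in batch 2 and 0.25 in batch 1 for astrocytes, and 0.55 in batch 2 and 0.10 in batch 1 for microglia. These within-batch medians were taken from TMM-scaled log2 CPM of single libraries, not from the fit. An unadjusted p under 0.05 was reached by none, none and 2 of the 37 in the neuron, astrocyte and microglia fractions, against 2.81%, 1.25% and 3.17% of all genes. The 38 genes of complexes II to V had medians 0.21, 0.32 and 0.35 above those of abundant genes.

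In microglia, Ndufa12 had 82.9 and 88.4 CPM under clozapine and 47.7 and 43.7 CPM under vehicle. The groups did not overlap, and the log2 difference was 0.98 (SE 0.34, unadjusted p = 0.014, adjusted p = 1.00). Ndufb8 had 35.5 and 27.2 CPM under clozapine and 17.98 and 20.6 CPM under vehicle, with 0.76 (SE 0.35, unadjusted p = 0.053, adjusted p = 1.00). In the astrocyte fraction Ndufa6, a matrix arm subunit that docks an acyl carrier protein, had 112 and 82.01 CPM under clozapine and 65.5 and 50.6 CPM under vehicle, with 0.89 (SE 0.53, unadjusted p = 0.12, adjusted p = 1.00). The complex IV protein Ndufa4 had 62.4 and 41.8 CPM under clozapine and 31.3 and 22.1 CPM under vehicle there, with 1.10 (SE 0.46, unadjusted p = 0.035, adjusted p = 1.00). In neurons Ndufa6 came first as well, with 109.8 and 95.4 CPM under clozapine and 72.6 and 68 CPM under vehicle and 0.70 (SE 0.33, unadjusted p = 0.058, adjusted p = 1.00). In none of these 5 pairs did the groups overlap, but the genes were named for their small p, so the separation adds no support.

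Risperidone minus vehicle was positive for 7 of 37 subunits in the neuron fraction, 32 in the astrocyte fraction and 9 in the microglia fraction, with medians of −0.23, 0.36 and −0.19. Relative to abundant genes the medians were −0.21, 0.28 and −0.02, and under library totals 18 of 37 were positive in microglia. When single libraries were left out, the astrocyte median moved between −0.41 (without the batch 1 risperidone library) and 0.90 (without the batch 1 vehicle library), and the neuron and the microglia median each between −0.53 and −0.03. An unadjusted p under 0.05 was reached by 2 subunits in neurons and none in astrocytes or microglia, against 0.8%, 0.641% and 4.28% of all genes. In neurons these were Ndufb9, with 53.7 and 44.2 CPM under risperidone and 135 and 55.5 CPM under vehicle, at −0.97 (SE 0.40, unadjusted p = 0.033, adjusted p = 1.00), and Ndufa1. Ndufa1 had 22.5 and 21.7 CPM under risperidone and 45.1 and 27.8 CPM under vehicle, at −0.73 (SE 0.33, unadjusted p = 0.047, adjusted p = 1.00). In the astrocyte fraction Ndufa13, a proximal subunit also known as GRIM-19, had 33.1 and 34.2 CPM under risperidone and 20.2 and 27.9 CPM under vehicle, at 0.66 (SE 0.36, unadjusted p = 0.097, adjusted p = 1.00). Of its exon length, 30.0% overlaps Tssk6 on the opposite strand. In microglia Ndufb4, a distal subunit, had 17.03 and 14.2 CPM under risperidone and 28.2 and 15.3 CPM under vehicle, at −0.66 (SE 0.38, unadjusted p = 0.10, adjusted p = 0.93). Groups overlapped for Ndufb4 and did not for the other 3 genes, which is no added support, as the genes were named for their small p.

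Clozapine minus risperidone, which uses no vehicle library, was positive for 37 of 37 subunits in the neuron fraction, 24 in the astrocyte fraction and 37 in the microglia fraction. The medians were 0.56, 0.09 and 0.47, and relative to abundant genes 0.49, 0.05 and 0.22. When single libraries were left out, the neuron median ran between 0.28 and 0.87 (without the batch 1 and the batch 2 risperidone library). The astrocyte median changed sign, at −0.35 without the batch 2 and 0.82 without the batch 1 risperidone library. The microglia median ran between 0.36 (without the batch 2 clozapine library) and 0.76 (without the batch 1 risperidone library). Under library totals 35, 25 and 28 were positive. In neurons the summed level was 2112 and 2278 CPM under clozapine and 1786 and 1783 CPM under risperidone, and in microglia 1166 and 1270 CPM under clozapine and 1140 and 893 CPM under risperidone, without overlap in either. The astrocyte groups overlapped, at 2459 and 2145 CPM under clozapine and 2495 and 1758 CPM under risperidone. An unadjusted p under 0.05 was reached by 8 subunits in neurons, none in astrocytes and 5 in microglia, against 3.26%, 1.06% and 7.39% of all genes.

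The smallest p in microglia belonged to Ndufb7, a distal subunit on the intermembrane space side, with 70.1 and 68.5 CPM under clozapine and 45.2 and 33.6 CPM under risperidone, at 1.06 (SE 0.32, unadjusted p = 0.0057, adjusted p = 0.67). Ndufb9 had 32.4 and 24.4 CPM under clozapine and 18.2 and 8.79 CPM under risperidone there, at 1.31 (SE 0.44, unadjusted p = 0.012, adjusted p = 0.67). In neurons Ndufa2, a matrix arm subunit with a thioredoxin-like fold, had 34.8 and 40.5 CPM under clozapine and 25.6 and 19.99 CPM under risperidone, at 0.93 (SE 0.31, unadjusted p = 0.011, adjusted p = 1.00). Ndufa6 in neurons had 109.8 and 95.4 CPM under clozapine and 61.96 and 59.4 CPM under risperidone, at 0.94 (SE 0.33, unadjusted p = 0.015, adjusted p = 1.00). These 4 genes, named for their small p, therefore separated the groups in their fraction, and none passed adjustment over all genes.

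**Figure D5:**
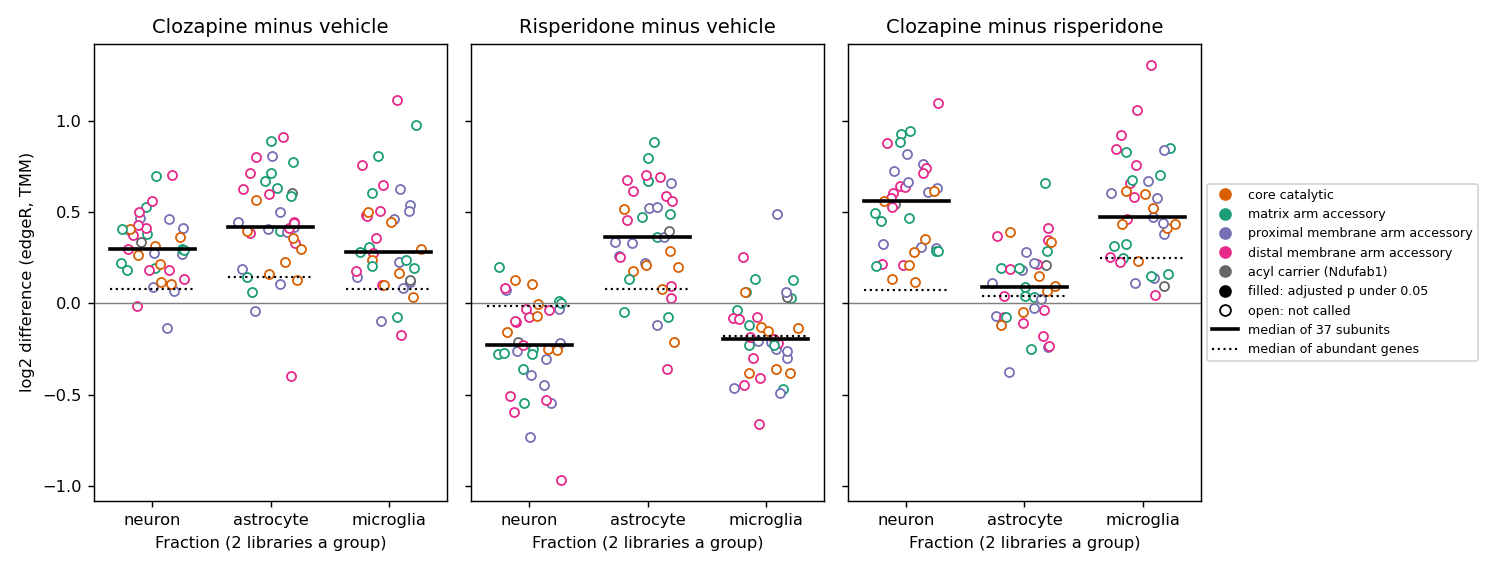
Log2 difference of each subunit (points, coloured by place in the complex; all open, as none had an adjusted p under 0.05 in edgeR) for clozapine minus vehicle, risperidone minus vehicle and clozapine minus risperidone in the neuron, astrocyte and microglia fractions, with 2 libraries a group. Thick lines are the subunits' medians, between −0.23 and 0.56, and dotted lines those of genes with a mean CPM of 8 or more.

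Whether a drug difference depended on the fraction was tested with interaction terms in the fit of all 18 libraries. No subunit was called in any of the 6 tests by edgeR's quasi-likelihood test with Benjamini-Hochberg adjustment or by DESeq2. At most 0.00268% of all genes were called by edgeR, which is 1 gene, and at most 2 genes by DESeq2. An unadjusted p under 0.05 was reached by 3.97%, 2.34% and 0.976% of all genes for clozapine minus vehicle in neuron minus microglia, neuron minus astrocyte and astrocyte minus microglia, and by 1.74%, 1.97% and 1.3% for risperidone minus vehicle. Among the subunits 1 reached it in the 6 tests: Ndufa2, in risperidone minus vehicle for neuron minus astrocyte, with −1.39 (SE 0.62, unadjusted p = 0.034, adjusted p = 1.00). In that test 35 of 37 differences were below 0, with a median of −0.57, against −0.07 for abundant genes. It was −0.21 in batch 2 and −0.88 in batch 1, and lay between −1.13 and 0.13 when single libraries were left out, the positive value being that without the batch 1 astrocyte library under risperidone.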

How the data were processed

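RNA of 18 immunopanned libraries was measured by paired-end RNA-seq after ribosomal RNA depletion, per the labels' protocols. The deposited values are raw counts per gene: per the file headers, the authors counted reads rather than pairs over exons with featureCounts 2.0.8, with no strand setting and with reads that overlap several genes counted for each (GRCm39). The submitters' processing notes also name FastQC. No aligner is named in the labels or headers used here. Exons of other genes that overlap a member's can therefore add reads to it. Such overlaps exist for 18 members, and for 8 of them cover more than 10% of the exon length. Reads within the overlaps were not counted apart.

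Levels are CPM, each count as a share of the library total, from 4.71 to 13.4 M counts a library. Counts were tested over all genes with edgeR 4.0.16 (quasi-likelihood test, low-count filter, TMM scaling, Benjamini-Hochberg adjustment, R 4.3.3), with SE taken as the log2 difference over the root of F. Fractions and interactions were fitted on all 18 libraries, drugs and batches within a fraction. Before the fits, edgeR's test was run on simulated data with known changes, for a part of the comparisons. The members and gene lists were chosen with earlier results of these data known. Of the members, the text gives all libraries for 6 core subunits and for genes outside the complex, and otherwise up to 4 genes in each direction of a comparison, called ones and then smallest p first. The values of 1 member by itself are not reported here.

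The batch number, a label, pairs libraries across treatments, and within a treatment it names the pool that gave all 3 fractions. Within a fraction, the batch differences of 2 treatments over genes with a mean CPM of 8 or more correlated at 0.171 to 0.735 in 9 such pairs (median 0.474). Alternatives were a fit with the pool as a block (the batch for drug comparisons within a fraction), DESeq2 1.42.0, other scalings, no filter, an adjusted p under 0.10, 1 library left out, vehicle libraries alone, and the combined table by symbol. TMM factors from genes with a mean CPM of 8 or more, and the tests of batch differences between fractions, were added after seeing the data.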

Additional observations from a re-analysis of the deposited data

Results flagged for a closer look

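In 6 of 135 groups of 6 libraries, a gene or summed list of 1 fraction, the highest or lowest library lay far from the other 5 by Dixon's ratio, and chance flags about 1 in 20 such groups. The neuron library of the batch 2 clozapine pool was the highest for Ndufb7 (112 CPM), Ndufa4 (56.1 CPM) and Ndufb4b (25.02 CPM). The astrocyte library of the batch 2 vehicle pool was the highest for Ndufb11b (4.30 CPM). In the microglia fraction the batch 2 clozapine library was the highest for Ndufa1 (20.3 CPM), and the batch 1 risperidone library for Ndufab1 (33.1 CPM).

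The batch 2 minus batch 1 difference itself differed between fractions in an interaction test. It was called more positive in the neuron than in the astrocyte fraction for 32 of 37 subunits, where 8.5% of all genes were, and among the genes named for Ndufa5 (1.79 on the log2 scale) and Ndufs5 (1.63). The count was 1 under library totals and 2 with factors from abundant genes, and 1 to 34 without single libraries. It was called more negative in the astrocyte than in the microglia fraction for 3 subunits, where 3.69% of all genes were, with Ndufa1 at −1.45, Ndufa5 at −1.35 and Ndufs1 at −1.17. This count was 0 under both other scalings and 0 to 14 without single libraries.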

How the results depend on the processing

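Alternatives other than leaving out a library kept 184 counts of called subunits within 1.5 times the count in the report and moved 17 beyond it. The cause was not tested. A count of 0 in both was taken as unchanged. The drug comparisons within a fraction, at 0 in every alternative run, are among the 184, so that number does not measure stability. With the pool as a block, 36 subunits were called in neuron over microglia, 30 in astrocyte over microglia and 1 in neuron over astrocyte. Drug comparisons within a fraction had the batch as the block and their interactions the pool, and 0 subunits were called in each. With vehicle libraries alone, 10 were called in neuron over microglia and 0 in astrocyte over microglia, with fewer libraries. Neuron over astrocyte gave 3 at an adjusted p under 0.10 and 2 under library totals. For batch 2 over batch 1, the astrocyte count was 4 under library totals and 5 with factors from abundant genes. The microglia count was 0 in the fit of all 18 libraries. The neuron count was 2 in that fit, 2 at an adjusted p under 0.10, 1 by DESeq2 and 1 without the filter. The batch difference of neuron minus astrocyte gave 21 by DESeq2, 1 under library totals and 2 with factors from abundant genes, and that of astrocyte minus microglia 0 under both scalings.

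Leaving out single libraries gave 34 to 36 calls in neuron over microglia, 14 to 34 in astrocyte over microglia and 0 to 5 in neuron over astrocyte, with 5, 2 and 1 without the batch 1 libraries of astrocytes under risperidone, astrocytes under vehicle and neurons under risperidone. For batch the ranges were 0 to 25 in astrocytes, 0 to 1 in microglia and 0 to 3 in neurons, with 2 and 3 without the batch 1 and the batch 2 clozapine library. The batch differences gave 1 to 34 for neuron minus astrocyte and 0 to 14 for astrocyte minus microglia. No drug comparison gave a call under any alternative run.

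Among the log2 differences of named genes, which were recomputed singly, 4 turned sign, none of them called in the report. Over all 37 subunits other uncalled signs turned with the scaling too, as the counts above 0 in the report show. Ndufs8 in neuron over microglia was −0.26 under library totals and −0.21 with factors from abundant genes. In astrocyte over microglia it was −0.056 by DESeq2 and under RLE scaling, −0.082 under library totals, −0.0039 without the filter, −0.23 with factors from abundant genes and −0.17 with vehicle libraries alone, and −0.126 to 0.0922 without single libraries. Ndufa4l2 in neuron over microglia was 0.51 with vehicle libraries alone. Ndufs5 in neuron over astrocyte was 0.29 with vehicle libraries alone, and −0.43 to 0.16 without single libraries. With 2 libraries a group, drug differences of 2-fold were mostly beyond reach.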
